A study of Homo sapiens with 8 samples.

Results

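The cytosolic ribosomal proteins are the protein components of the large and small subunits of the ribosome, and the genes that encode them were taken from the array design as every non-control probe whose gene name is RPL, RPS or RPLP followed by a number and, for some, a letter A, X, Y or L and a further number, together with RPSA. The rule found 86 genes of 36337 gene names, read by 186 of 50599 probes. It used names alone and no measured value. Of these genes 77 encode core proteins, with 43 in the large subunit, 31 in the small subunit and 3 in the acidic stalk, and 9 are paralogs. A total of 84 genes had a probe that exceeded background in both replicates of some line, and the chosen probe of each of the 84 did so on all 8 arrays. RPS4Y1 and RPS4Y2 had no such probe and enter no comparison.

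RNA was measured in Flp-In T-REx HEK293 cells, called FT293 cells, an established human embryonic kidney line in which a construct sits at a single recombination site and is switched on by tetracycline. The 4 lines carried GFP, GFP-HuR, GFP-TIA1 or GFP-TIAR, and all of them, the GFP controls included, were given tetracycline, with RNA taken on day 3. One label of the second TIA1 array reads GFP-TIA2, while its title, description and genotype name GFP-TIA1, and it was grouped by its title. Each line was read on 2 one-colour human oligonucleotide arrays, so 8 arrays in all, and the labels do not say whether the pair came from separate cultures, so each p-value measures only the spread between arrays of a line, which may be technical. TIA1 and TIAR are related RNA-binding proteins that act in alternative splicing and translational silencing, HuR is an RNA-binding protein that mostly stabilises its target mRNAs, and GFP, a fluorescent protein, is the tag all constructs share.

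Ribosomal proteins are made in equal amounts for assembly with ribosomal RNA in the nucleolus. Most of their mRNAs begin with a 5′ terminal oligopyrimidine (TOP) motif, a C at the cap followed by a run of C and T. Growth signalling through mTOR frees these mRNAs for translation, while LARP1, which binds the cap and the TOP motif, and under amino acid starvation TIA1 and TIAR hold them back. An array reads the amount of mRNA and not its translation. As total RNA was labelled from bulk cells, a change in RNA per cell cannot be told apart from a change in the mix of cells.

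The start of the transcript is the feature the names did not use. RefSeq starts (GRCh38.p14) were found for 69 of the 86 genes, and a TOP start was counted where the first base is C and at least 4 further C or T bases follow it, on the transcript strand only, taking the best of a gene's listed starts. Among the 62 core genes listed there, 46 (74.2%) had such a start, against 1404 of all 27305 genes (5.14%) and 6 of 69 mitochondrial ribosomal protein genes (8.70%). The first 24 transcribed bases of 5 core genes are shown because these genes recur in the results, with the run of C and T from the first base in capitals.
RPS21, chr20:62387103-62387126, plus strand: CCTTTCTCTCTCgcgcgcggtgtg
RPL26, chr17:8383170-8383193, minus strand: CTCTTCCCTTTTgcggccatcacc
RPL22, chr1:6199572-6199595, minus strand: CCTTTCTaactccgctgccgccat
RPLP2, chr11:809967-809990, plus strand: CCTTTTCCTCCCTgtcgccaccga
RPL39, chrX:119791607-119791630, minus strand: CCCTCCTCTTCCTTTCTCCgccat
Each of these genes opens with C, and the run is 7 bases long in RPL22 and 19 in RPL39.

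Other core genes did not meet the definition at their annotated start, and 4 are shown in lower case since no qualifying run begins them. RPL3 opens with C but its run stops after 4 bases, RPL19 opens with T, and RPS4X and RPL10A open with A.
RPL3, chr22:39319600-39319623, minus strand: ctctaccggcgggatttgatggcg
RPL19, chr17:39200323-39200346, plus strand: tttcgctgctgcggccgcagccat
RPS4X, chrX:72277225-72277248, minus strand: aatttctacgcgcaccggaagacg
RPL10A, chr6:35468401-35468424, plus strand: agtctcttttccggttagcgcggc
No match says only that these letters are not at the listed start, which can lie some bases away from the start used in these cells.

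The paralogs were unlike the core genes in this respect. Of the 5 with an entry and a chosen probe, RPL22L1 alone had a TOP start, and the other 4 opened with G.
RPL22L1, chr3:170870172-170870195, minus strand: CTCTCTgctctcgcggccgactcg
RPS27L, chr15:63157454-63157477, minus strand: gcagatcgcttgcagcttgctagc
RPL7L1, chr6:42879616-42879639, plus strand: gtagctaggagcggacgccatagg
RPL26L1, chr5:172958729-172958752, plus strand: ggcgaacgaaacgcggagctcggg
RPL10L, chr14:46651758-46651781, minus strand: gagcgcattttgacttcgaggcac
RPL39L and RPL3L had no entry.

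**Figure D1:**
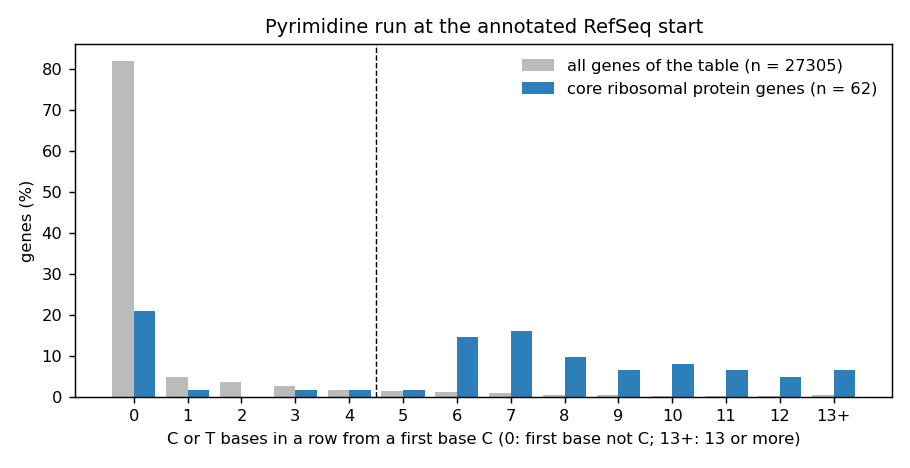
Number of C or T bases in a row counted from a first base C at the annotated RefSeq start (x axis) against the percentage of genes (y axis), for all genes of the table and the core ribosomal protein genes. The dashed line marks the definition of a TOP start: 74.2% of the 62 core genes lie to its right and 5.14% of the 27305 genes.

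Values are log2 of Agilent's processed signal minus the 75th percentile of the same array, so 1 unit is a 2-fold difference, and they are comparable between arrays for 1 probe but not between probes. The GFP 1 array stood apart: 86.1% of its probes were well above background against 53.3% to 58.6% on the other 7, and its median local background was 82 units against 36 to 41.5. Among the carried genes, the brighter TIAL1 probe read 4.87 and 4.98 in the TIAR line and at most 2.52 elsewhere. The dimmer TIAL1 probe was not higher there, at -4.12 and -3.85 in the TIAR line and -3.45 and -3.70 in GFP cells. Neither probe of TIA1 nor the probe of ELAVL1, the HuR gene, was higher in the line that carries it than in GFP cells, and whether these probes lie in the constructs is not given in the sources used here, so they check nothing. The 6 genes expected in HEK293 cells (PAX2, LHX1, NEFL, NEFM, INA and VIM) were all above background, NEFM on 7 arrays, with a summed relative signal of 80.4 to 121. Of 4 markers of other cells, HBB had no probe above background on both arrays of a line, and PTPRC, ALB and CDH5 summed to 0.116 to 0.258, except on GFP 1 where they reached 2.34. That sum was 0.133 and 0.150 in HuR cells and 0.220 to 0.258 in TIA1 and TIAR cells, and its part in the results was not tested. Within it, ALB was 7.05-fold (TIA1) and 6.12-fold (TIAR) above HuR cells by limma (adjusted p = 0.0032 and 0.0057). Its signal was low, -3.13 to -2.76 in the TIA lines, -5.94 and -5.42 in HuR cells, and -3.53 and -6.04 in GFP cells.

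As a group, the core genes were slightly higher in TIA1 than in HuR cells. Their median on the 2 arrays was 8.00 and 7.99 in TIA1 cells, 7.80 and 7.69 in HuR cells, 7.73 and 8.00 in TIAR cells, and 7.33 and 7.73 in GFP cells. Both TIA1 arrays were thus above both HuR arrays, while the TIAR range overlapped the HuR range. GFP 1 was the lowest array and GFP 2 lay within the HuR range. Replicate arrays differed by a median of 0.09 (HuR), 0.11 (TIA1), 0.17 (TIAR) and 0.36 (GFP) log2 units over the core probes. With quantile normalization the core medians of TIA1 cells (7.84 and 7.74) and HuR cells (7.78 and 7.76) overlapped. They also overlapped in the authors' values, at 18.24 and 18.29 against 18.29 and 18.24.

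In the comparison of TIA1 with HuR cells, 15 of the 77 core genes rose and none fell with limma at an adjusted p under 0.05. Over all 84 measured genes, paralogs included, 17 were higher and 2 lower. Among all 28740 tested probes 41.5% passed the same threshold, 24.2% higher and 17.3% lower, so the members' share of 22.6% was below the background. The log2 fold change was positive for 73 of 77 core genes, with a median of 0.25, against 0.08 for all tested probes. No core gene passed the test with a change of 2-fold or more, whereas 13.4% of all probes did. At an unadjusted p under 0.05 there were 39 of 84 members, against 52.4% of all probes. These counts lean on the HuR arrays: without HuR 1 a single gene was higher and 1 lower, and without HuR 2 the counts were 2 and 1, as calls over all probes fell to 11.4% and 10.3%. Without TIA1 2, the array with the conflicting label, 12 genes were higher and 3 lower. The adjusted p-values come from limma's moderated test of 2 against 2 arrays with the Benjamini-Hochberg method over all tested probes.

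The small subunit held the core gene with the largest rise. RPS21, a small protein of that subunit with its probe at chr20:60962941-60963394 (hg19), read 8.43 and 8.51 in TIA1 cells, 8.34 and 8.26 in TIAR cells, 7.68 and 7.56 in HuR cells, and 7.77 and 8.09 in GFP cells. HuR cells had the lower values and overlapped neither TIA line. The log2 fold change over HuR was 0.85 ± 0.10 (SE) for TIA1 (adjusted p = 0.0071) and 0.68 ± 0.10 for TIAR (adjusted p = 0.017), and the other RPS21 probes lay between 0.77 and 0.94 in these comparisons. RPS2, which lines the mRNA entry channel, read 9.51 and 9.41 in TIA1 cells against 8.44 and 8.92 in HuR cells. This rise of 0.78 ± 0.19 passed the test (adjusted p = 0.035), but its other 5 probes gave 0.08 to 0.47. In TIAR cells RPS2 read 8.86 and 8.99, which overlaps the HuR range.

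In the large subunit, RPL23, which can bind the p53 inhibitor MDM2, read 8.64 and 8.59 in TIA1 cells and 7.99 and 7.76 in HuR cells. The log2 fold change was 0.74 ± 0.12 (adjusted p = 0.014), against 0.02 to 0.24 for its other probes. RPL22, known as a binder of a viral small RNA, rose by 0.59 ± 0.10 (adjusted p = 0.015), from 5.10 and 4.98 in HuR cells to 5.59 and 5.67 in TIA1 cells. Its other probes ranged from -0.13 to 0.71, so not every RPL22 probe showed the rise. RPL26, which sits by the exit of the peptide tunnel, rose by 0.55 ± 0.10 (adjusted p = 0.020), and its other 2 probes gave 0.49 and 0.61. Each of these genes that has a RefSeq entry, RPL22 and RPL26, carries the TOP start shown above.

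The stalk proteins RPLP0, RPLP1 and RPLP2 recruit elongation factors to the ribosome. RPLP2 read 8.18 and 8.28 in TIA1 cells and 7.87 and 7.82 in HuR cells, a rise of 0.38 ± 0.10 (adjusted p = 0.037). RPLP0 and RPLP1 had log2 fold changes of 0.17 and 0.07 (adjusted p = 0.29 and 0.59). The remaining 9 core genes that rose lay between RPL7A, at 0.38, and RPS13, at 0.59. They were RPL7A, RPL19, RPL23A, RPL27A, RPL36, RPL37A, RPS13, RPS16 and RPS19, the last a gene mutated in Diamond-Blackfan anaemia.

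Several core proteins with known roles outside the ribosome did not pass the test in TIA1 against HuR cells. RPL5 and RPL11 bind MDM2 together with 5S RNA, and their log2 fold changes were 0.04 ± 0.11 and 0.32 ± 0.13 (adjusted p = 0.78 and 0.13). RPS6, the substrate of the S6 kinases, gave 0.09 ± 0.12, with its second probe at -0.69. RPSA, also described as a laminin receptor, gave 0.04 ± 0.09. RPS27A, made as a fusion with ubiquitin, gave 0.31 ± 0.10 (adjusted p = 0.073), and RPL13A, part of an interferon-induced translation inhibitor complex, gave 0.34 ± 0.15 (adjusted p = 0.14). RPS4X gave 0.15 ± 0.11 and RPL10, which completes the large subunit, gave 0.09 ± 0.09.

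Fewer genes passed when TIAR cells were compared with HuR cells. Of the 84 genes 4 were higher and 3 lower, 8.33% together, against 30.7% of all 29097 tested probes (18.1% higher and 12.6% lower). Among the core genes RPS21, RPL23A and RPL19 rose and RPL3 fell. No member call held without HuR 1 or without HuR 2, where calls over all probes also became few. With all 4 arrays, 14 of the 84 had an unadjusted p under 0.05 by limma (45.4% of all probes). By the methods' paired t-test before adjustment 3 were higher and 1 lower, where 17.0% of all probes passed. None passed after adjustment. Over the 84 genes the median log2 fold change was 0.08 without HuR 1 and 0.03 without HuR 2. It was 0.18 without TIAR 1 and -0.02 without TIAR 2. With all 4 arrays the core median was 0.06, next to 0.05 for all probes.

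RPL23A, a docking site for the signal recognition particle at the tunnel exit, read 9.03 and 8.86 in TIAR cells and 8.40 and 8.21 in HuR cells, a log2 fold change of 0.64 ± 0.13 (adjusted p = 0.028). RPL19, which forms a bridge between the subunits, read 8.27 and 8.37 against 7.90 and 7.91, a change of 0.41 ± 0.10 (adjusted p = 0.042). For both genes the TIA1 arrays were also above both HuR arrays. RPL3, which shapes the peptidyl transferase centre and whose probe lies at chr22:39709699-39710135 (hg19), read 7.25 and 7.23 in TIAR cells, 8.08 and 7.98 in TIA1 cells, 7.80 and 7.69 in HuR cells, and 6.91 and 7.88 in GFP cells. It fell by 0.51 ± 0.10 against HuR (adjusted p = 0.027) and by 0.79 ± 0.11 against TIA1 (adjusted p = 0.045). The second RPL3 probe did not repeat this, with changes of 0.23 and -0.05.

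**Figure D2:**
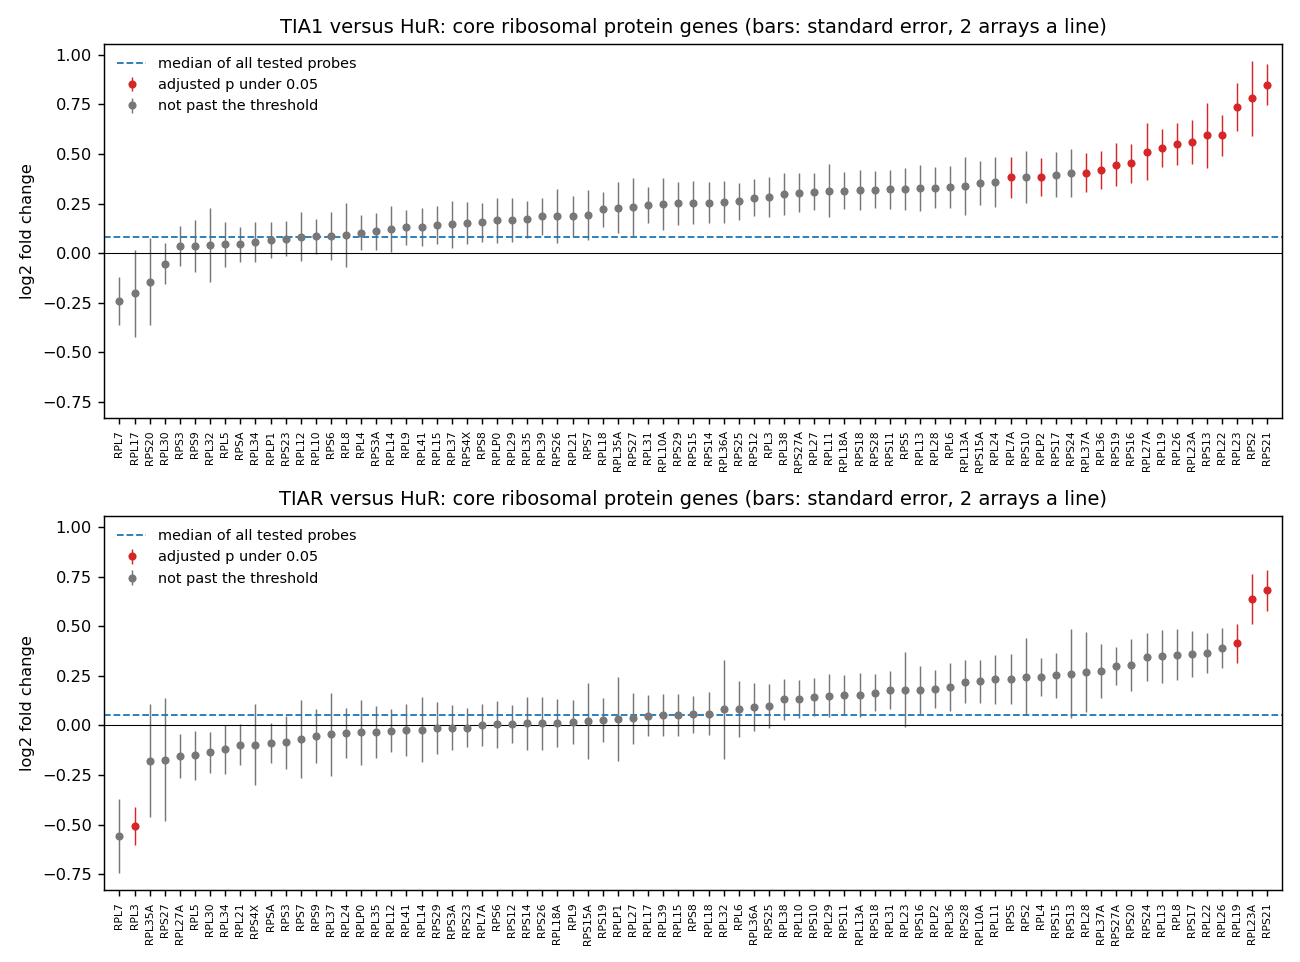
Log2 fold change of each of the 77 core genes (y axis, genes ordered along the x axis) in TIA1 against HuR cells (top) and TIAR against HuR cells (bottom), with standard errors from 2 arrays a line, genes past an adjusted p of 0.05 in red and the median of all tested probes dashed. In the top panel 73 points lie above 0 and 15 are red, while in the bottom panel 4 are red. The height of all points together depends on the scaling, and with quantile normalization the top median falls from 0.25 to 0.01.

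Whether the core genes stood higher as a group depended on how the arrays were scaled. With the 75th percentile the core median in TIA1 against HuR cells was 0.17 above that of all tested probes, and the array median, which put all probes at -0.16 in place of 0.08, gave the same 0.17. It was 0.09 after normexp background correction, 0.01 after quantile normalization, 0.01 after both, and 0.02 in the authors' processed values. Counts of members higher and lower went from 17 and 2 to 4 and 4 with the array median, 5 and 2 with quantile normalization, 26 and 2 with normexp, 8 and 2 with normexp and quantile normalization, and 8 and 2 in the authors' values. The share of higher probes among all called probes moved as well, from 58.2% to 33.6% with the array median and 51.0% with quantile normalization. For TIAR against HuR the core median stayed within 0.05 of that of all probes under 5 scalings, the array median again being no separate check. It was 0.15 above that of all probes in the authors' values. The 4 and 3 members called became 2 and 12 with the array median. There the share of higher probes went from 59.0% to 29.0%.

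**Figure D3:**
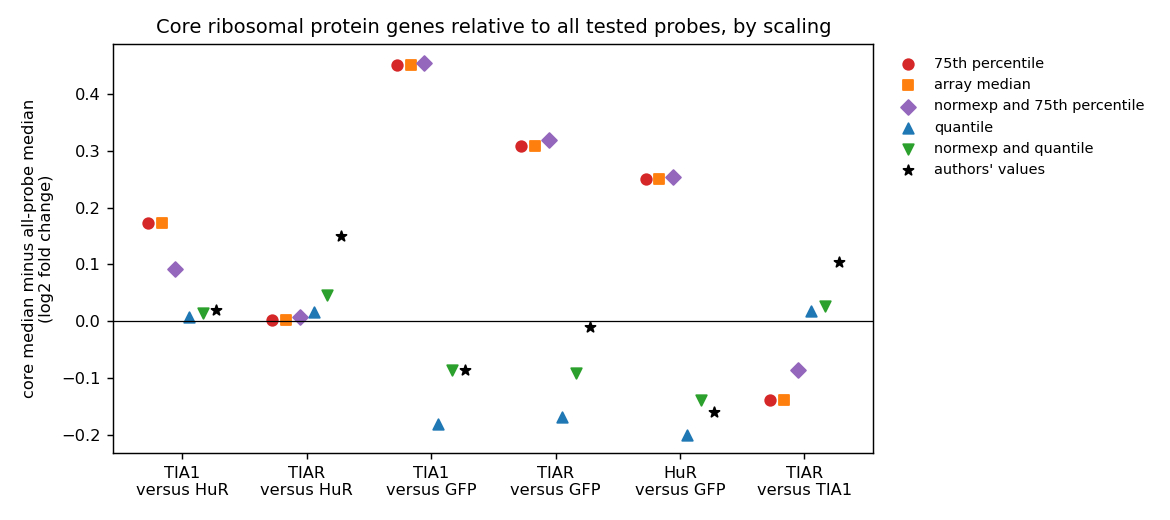
Median log2 fold change of the 77 core genes minus that of all tested probes (y axis) in the 6 comparisons (x axis), each point under 1 of 6 scalings. The 3 comparisons with GFP change sign, as TIA1 versus GFP does from 0.45 with the 75th percentile to -0.18 with quantile normalization, and TIAR versus TIA1 changes sign as well.

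Against GFP cells no ribosomal protein gene passed the test in any line. By limma 0 of 84 genes were called in TIA1, TIAR or HuR cells, as were 0% of all tested probes in each of these 3 comparisons. At an unadjusted p under 0.05 the members numbered 17 (TIA1), 5 (TIAR) and 7 (HuR), where all probes had 21.7%, 16.4% and 17.2%. The methods' paired t-test at p under 0.05 had 11 (TIA1), 4 (TIAR) and 0 (HuR) members higher, and none after adjustment. By this t-test 8.07%, 7.21% and 6.55% of all probes passed before adjustment, in either direction. The core median log2 fold changes were 0.46, 0.28 and 0.21, and relative to all probes they were 0.45, 0.31 and 0.25 with the 75th percentile but -0.18, -0.17 and -0.20 with quantile normalization. With the array median, the median of all probes themselves was 0.70, 0.65 and 0.90, in place of 0.01, -0.02 and -0.04. The size of the differences from GFP cells leaned on the GFP pair. Without GFP 2, so with the array of high background alone, the median over the 84 genes was 0.63 (TIA1), 0.49 (TIAR) and 0.42 (HuR). Without GFP 1 it was 0.22, 0.07 and -0.01.

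All 3 comparisons share the GFP arrays, so their values are given side by side only. RPL11 read 7.20 and 6.92 in GFP cells and at least 7.60 on every other array, with log2 fold changes of 0.94 ± 0.23 (TIA1), 0.86 ± 0.22 (TIAR) and 0.63 ± 0.19 (HuR) and adjusted p of 0.15, 0.23 and 0.26. RPS27 read 7.38 and 7.44 in GFP cells, with 0.90, 0.49 and 0.66 (adjusted p = 0.15, 0.53 and 0.21). RPL7 read 6.03 and 6.05 in GFP cells, with 0.46, 0.14 and 0.70 (adjusted p = 0.27, 0.78 and 0.22). For RPL11 the groups do not overlap, while 1 TIAR array lay beside the GFP pair for RPS27, at 7.47, and below it for RPL7, at 5.96.

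Against HuR cells the paralogs held the largest differences of the family. They are retrocopies or duplicates of core genes, several of them expressed in few tissues, and 4 of the 7 measured (57.1%) were called in TIA1 against HuR cells, where 41.5% of all tested probes were, and 3 of 7 (42.9%) in TIAR against HuR cells, where 30.7% were. Both members past 2-fold in each comparison were paralogs, RPL39L and RPL3L, where 13.4% and 10.1% of all probes passed that mark. Each paralog was read by 1 probe, and near-identical copies, pseudogenes included, may share signal with it or with the core probes, since the files do not say which copies a probe also reads.

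RPL39L encodes a testis-enriched form of the small tunnel protein RPL39, and its probe lies at chr3:186839111-186845840 (hg19). It read -0.96 and -0.95 in TIA1 cells, 0.21 and 0.55 in TIAR cells, 1.49 and 1.54 in HuR cells, and 0.61 and 1.08 in GFP cells. The arrays of TIA1, TIAR and GFP cells formed separate ranges in that order below HuR. It fell by 2.47 ± 0.09 in TIA1 cells against HuR (adjusted p = 0.0018) and by 1.14 ± 0.15 in TIAR cells (adjusted p = 0.013). TIAR cells were 1.33 ± 0.16 above TIA1 cells (adjusted p = 0.036). Against GFP the changes were -1.80 ± 0.25 (TIA1, adjusted p = 0.10), -0.46 ± 0.28 (TIAR, 0.46) and 0.67 ± 0.23 (HuR, 0.28). Its partner RPL39 read 7.33 to 7.84 over all 8 arrays and had changes of 0.19 ± 0.09 and 0.05 ± 0.11 against HuR (adjusted p = 0.18 and 0.74).

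RPL3L is the form of RPL3 found in heart and skeletal muscle, with its probe at chr16:1995598-1995873 (hg19). Its signal was low, -4.35 and -4.15 in HuR cells and -4.19 and -5.14 in GFP cells, where the dimmest probes called well above background on the arrays lay between -6.11 and -5.18. TIA1 cells read -2.67 and -2.57 and TIAR cells -2.25 and -1.86, above all HuR and GFP arrays. The rise over HuR was 1.63 ± 0.12 for TIA1 (adjusted p = 0.0030) and 2.19 ± 0.17 for TIAR (adjusted p = 0.0058), or 3.09-fold and 4.58-fold. Against GFP it was 2.04 ± 0.38 and 2.61 ± 0.41 (adjusted p = 0.12 and 0.18).

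RPL22L1, the paralog of RPL22 with its probe at chr3:170584204-170584263 (hg19), went the other way from its partner in TIA1 cells. It read 3.28 and 3.34 in TIA1 cells, 2.65 and 3.64 in TIAR cells, 4.07 and 4.12 in HuR cells, and 4.30 and 3.85 in GFP cells. It fell by 0.79 ± 0.09 in TIA1 against HuR cells (adjusted p = 0.0067), where RPL22 rose by 0.59 on the probe chosen. The difference in TIAR cells was -0.95 ± 0.35 (adjusted p = 0.11), with both TIAR arrays below both HuR arrays but far apart from each other.

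RPS27L, a p53 target, read 5.30 and 5.35 in TIA1 cells, 4.76 and 5.15 in TIAR cells, 4.70 and 4.69 in HuR cells, and 4.24 and 4.76 in GFP cells. It rose by 0.63 ± 0.09 in TIA1 against HuR cells (adjusted p = 0.010), while its partner RPS27 gave 0.23 ± 0.15 (adjusted p = 0.26). RPL7L1 read 3.36 and 3.41 in TIAR cells against 3.97 and 4.03 in HuR cells and fell by 0.62 ± 0.09 (adjusted p = 0.017). Its change in TIA1 cells was -0.30 ± 0.09 (adjusted p = 0.063), and its partner RPL7 gave -0.24 ± 0.12 and -0.56 ± 0.19 in TIA1 and TIAR against HuR cells (adjusted p = 0.18 and 0.089). RPL26L1 and RPL10L, the latter a testis retrogene of RPL10, gave -0.05 and -0.01 in TIA1 cells and -0.19 and -0.12 in TIAR cells, none past the test.

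**Figure D4:**
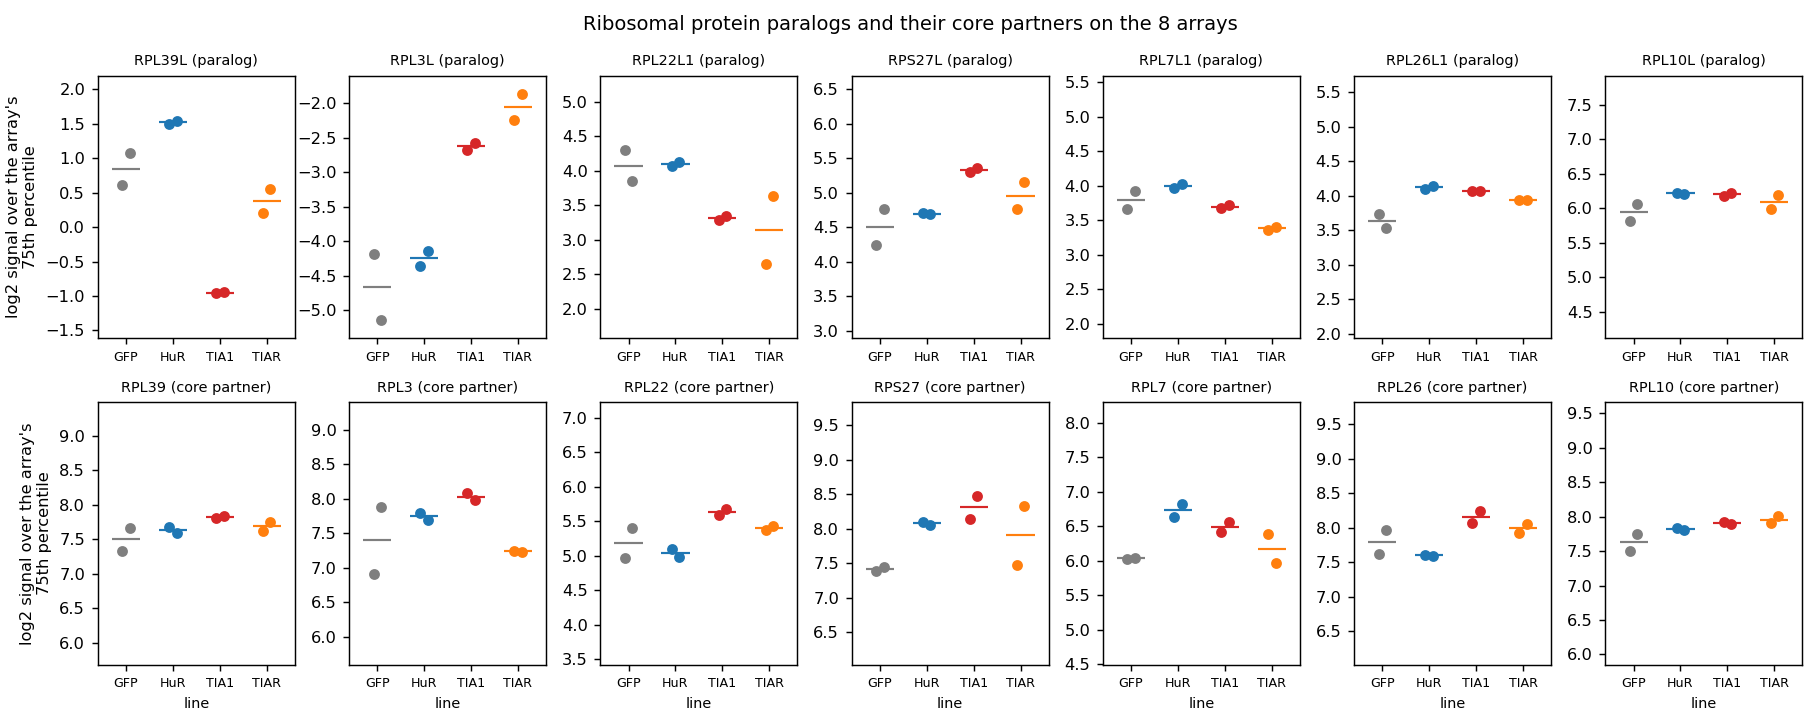
Log2 signal over the array's 75th percentile (y axis, each panel spanning the same number of units) on the 2 arrays of each line (x axis) for 7 paralogs (top) and their core partners (bottom), with the mean of each pair as a bar. RPL39L is lowest in TIA1 cells at -0.96 and -0.95, RPL3L is highest in the TIA lines, and RPL22L1 and RPL22 lie in opposite orders for TIA1 and HuR.

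TIAR and TIA1 cells differed little within the family. RPL39L was higher and RPL3 lower in TIAR cells, 2 of 84 genes or 2.38%, against 3.48% of all 28062 tested probes (1.74% higher and 1.74% lower). Only RPL39L of the 84 also passed 2-fold, as did 2.35% of all probes, and 9 of the 84 had an unadjusted p under 0.05 against 23.8% of all probes. The core median was -0.16, or -0.14 relative to all probes, and turned to 0.02 with quantile normalization and 0.11 in the authors' values. No member passed when any of the 4 arrays was left out. Among the MDM2 binders, RPL23 read 7.85 and 8.26 in TIAR cells, below 8.64 and 8.59 in TIA1 cells, a change of -0.56 ± 0.18 (adjusted p = 0.16).

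Core genes with and without a TOP start had like medians. In TIA1 against HuR cells the 46 genes with a TOP start had a median log2 fold change of 0.26 and the 16 without one 0.22, and 11 and 1 of them were higher. In TIAR against HuR cells the medians were 0.06 and 0.05, and in TIA1 against GFP cells 0.46 and 0.42. The ranges overlapped throughout, from 0.04 to 0.85 with a TOP start and from -0.20 to 0.53 without in TIA1 against HuR cells. This split is given as a description with no test. As a listed start can lie some bases away from the start used, the 16 may include mRNAs with a TOP start. Core genes without an entry, RPS2, RPL23 and RPL23A among them, are in neither group.

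Few of the other mRNAs known for a TOP start, most of them translation factors, passed the test. Of 18 measured, 2 were higher and none lower in TIA1 against HuR cells (11.1%), against 41.5% of all tested probes (24.2% higher). Their median log2 fold change was 0.19, next to 0.08 for all probes. With the array median it was -0.06, where all probes were at -0.16. Relative to all probes it was 0.11 under both scalings and -0.03 with normexp. EEF1D, a subunit of the exchange factor of elongation factor 1, read 5.84 and 5.74 in TIA1 cells against 5.21 and 5.11 in HuR cells. EIF3L, a subunit of initiation factor 3, read 5.04 and 5.01 against 4.48 and 4.45. Their log2 fold changes were 0.63 and 0.56 (adjusted p = 0.013 for both). In TIAR against HuR cells VIM was higher by 0.45 and EEF1B2 lower, at -0.60, again 11.1% of the 18 measured, against 30.7% of all probes. VIM also counts among the HEK293 genes named above.

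Of 19 regulators of TOP mRNAs, 8 were lower and 1 higher in TIA1 against HuR cells (47.4%, next to 41.5% of all tested probes). In TIAR against HuR cells 6 were lower and 1 higher (36.8%, next to 30.7%), the higher one being TIAL1, which these cells carry. Both total shares were near those of all probes. Lower calls alone were 17.3% and 12.6% of all probes, less than the 8 and 6 of 19 regulators. This difference was not tested. The list holds the TIA genes themselves, as TIA1 and TIAL1 are among the 8 and TIA1 is among the 6. The paper reports that expressing TIA1 or TIAR depleted the endogenous TIA proteins. LARP1, the TOP-binding repressor, read 4.88 and 4.80 in TIA1 cells, 4.81 and 4.84 in TIAR cells, 5.62 and 5.48 in HuR cells, and 4.55 and 5.01 in GFP cells. HuR cells were thus above the other 6 arrays, and the changes were -0.71 (TIA1, adjusted p = 0.011) and -0.73 (TIAR, 0.015). RPS6KB1, the S6 kinase, read 0.69 and 0.61 in TIA1 cells, 0.43 and 0.57 in TIAR cells, and 1.38 and 1.40 in HuR cells, with -0.74 and -0.89 (adjusted p = 0.0076 and 0.010). On GFP arrays it read 0.00 and 0.94, a span that covers both TIA lines.

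EIF4EBP1, a repressor of cap-dependent initiation, changed by -0.77 in TIA1 against HuR cells (adjusted p = 0.0067), and LARP4 and EIF4EBP2 by -0.76 and -0.45 in TIAR against HuR cells (adjusted p = 0.011 and 0.043). RHEB, the small GTPase that activates mTOR, was higher by 0.52 in TIA1 cells (adjusted p = 0.019) and gave -0.26 in TIAR cells (0.17). Among the genes of the constructs, the brighter TIA1 probe changed by -1.58 in TIAR against HuR cells and TIAL1 by -0.81 in TIA1 against HuR cells (adjusted p = 0.0088 and 0.0072), neither being the gene the line carries. In TIA1 cells the same TIA1 probe changed by -0.98 (adjusted p = 0.0047), and what it reads of the construct is not known. MTOR itself gave -0.49 and -0.35 (adjusted p = 0.051 and 0.14). Against GFP cells none of these lists had a call, as for all probes.

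The mitochondrial ribosomal proteins build the other ribosome of the cell. Of 76 genes 3 were higher and 19 lower in TIA1 against HuR cells, 28.9% against 41.5% of all tested probes (17.3% lower), with a median log2 fold change of -0.22 and positive values for 13, where 73 of 77 core cytosolic genes were positive. In TIAR against HuR cells 0 were higher and 17 lower, 22.4% against 30.7% of all probes (12.6% lower), with a median of -0.31. Both total shares were thus below those of all probes, while the lower calls, 19 and 17 of 76, were above the 17.3% and 12.6%. Under each of the 6 scalings these medians lay below that of all probes, with differences of -0.38 to -0.17 for TIA1 and -0.40 to -0.08 for TIAR. The array median is no separate check here either. Against GFP cells none passed, and the medians were -0.10 (TIA1), -0.15 (TIAR) and 0.18 (HuR). With the array median the first 2 became 0.60 and 0.52, but the median of all probes itself moved to 0.70 and 0.65. Relative to all probes these 2 were -0.10 and -0.13 under both scalings, a value that such a shift of whole arrays cannot move. With quantile normalization they were -0.46 and -0.48, and in the authors' values -0.42 and -0.33. The HuR median turned to -0.05 in the authors' values, or from 0.22 to -0.21 relative to all probes. The difference between the 2 families was not tested.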

How the data were processed

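Total RNA of 4 tetracycline-induced FT293 lines (2 arrays each) was hybridised to Agilent human 8x60K arrays on a single slide, where the arrays of a line were neighbours, so line and position cannot be told apart. The deposited scanner files hold processed signal intensity from Feature Extraction 10.7.3.1, which subtracts background. The authors' series table holds log2 values, quantile-normalized per the study's methods, and was used as an alternative. Its 2 TIAR columns have a lower median (7.08) than the others (7.23 to 7.24).

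Here log2 intensity minus each array's 75th percentile was used. Spots marked as outliers were dropped, and the rest averaged per probe. A probe was tested where well above background on both arrays of 1 of the 2 lines. limma 3.58.1 (R 4.3.3) was fitted to the 4 arrays of a comparison with Benjamini-Hochberg adjustment, threshold 0.05, and tested on simulated data. A gene was read by its brightest probe over the 8 arrays. No gene had probes called in both directions. For each comparison the text names the called genes (the 5 with the largest change in a direction where there were more) and a list of 25 members with paralogs or known other roles. Further called members were named after their values were seen. The number of arrays limits the precision, and no spot was saturated. Alternatives were quantile, array median and normexp (offset 50) processing, filters on dim probes, one fit of all arrays, a replicate block, the mean over a gene's probes, leaving out arrays, and the methods' paired t-test on log2 intensity. That t-test is the study's general test for 2 groups, paired here by array number, while the study called its array results by limma. Members and lists were chosen with earlier results of these data known. Promoter tables of RefSeq (GRCh38.p14) gave transcript starts, and probe positions are hg19. Some genes of the added lists are not reported here.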

Additional observations from a re-analysis of the deposited data

Results flagged for a closer look

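TIA1 and TIAR cells differed from each other for 2 members of the family, by limma's test of TIAR against TIA1 cells. RPL39L was 1.33 higher on the log2 scale in TIAR cells (adjusted p = 0.036), with 0.21 and 0.55 against -0.96 and -0.95, and both TIAR arrays lay above both TIA1 arrays. RPL3 was at -0.79 (adjusted p = 0.045), with 7.25 and 7.23 against 8.08 and 7.98, while its second probe gave -0.05. Neither passed when any of the 4 arrays was left out, or with the replicate block. A pair of arrays a line allows no search for single arrays that stand apart.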

How the results depend on the processing

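Of 36 called changes of named genes, none changed direction under any alternative, and all 36 were kept when a probe had to be above background on all 4 arrays. RPL39L and RPL3L in TIA1 against HuR cells were called in 15 of 16 alternatives each. Calls were lost for 26 of the 36 without a filter on dim probes, 18 with all 8 arrays in one fit, 11 with the array median, 10 in the authors' values, 9 each with quantile normalization, with normexp and quantile normalization, and with the replicate block, 5 with the mean over probes, 3 with normexp, 15 by the methods' t-test at p under 0.05, and all 36 by it after adjustment. Of the calls an array enters, 29 were lost and 4 kept without HuR 1, and as many without HuR 2. The loss was 4 without either TIA1 array, 7 without TIAR 1 and 6 without TIAR 2. In TIAR versus HuR the array median raised the lower calls from 17 to 53 among mitochondrial ribosomal protein genes and from 6 to 13 among the regulators, and the authors' values had 9 and 3.

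For TIA1 versus HuR, 17 genes higher and 2 lower became 2 higher without a filter, and 4 higher and 1 lower with all 8 arrays, with 4 and 4 (array median), 5 (quantile), 26 (normexp), 8 (normexp and quantile) and 8 (authors' values) higher otherwise, and 0 and 0 by the adjusted t-test. The median of 0.25 was 0.0066 with the array median, 0.0033 with quantile normalization, 0.012 with normexp and quantile, and 0.015 in the authors' values. For TIAR versus HuR, 4 higher and 3 lower became 2 and 12 (array median, median -0.22), 7 higher (normexp and authors' values), 1 and 0 (no filter), 1 lower by the t-test at p under 0.05, and 0 and 0 after adjustment.

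Against GFP, where no gene was called, the fit of all 8 arrays gave 9 higher and 1 lower (TIA1) and 5 higher (TIAR) of 84. In that fit 18.9% and 11.7% of all probes were called. The t-test at p under 0.05 gave 11 and 4 higher, where 8.07% and 7.21% of all probes passed. The medians of 0.44 (TIA1), 0.28 (TIAR) and 0.21 (HuR) were 1.14, 0.95 and 1.15 with the array median, where all probes had 0.70, 0.65 and 0.90. With quantile normalization they were 0.061 (TIA1) and 0.028 (TIAR), and TIA1 had 0.072 after normexp and quantile and 0.083 in the authors' values. For TIAR versus TIA1, the gene higher was lost (0) with normexp, the authors' values, no filter, the replicate block and both t-tests, and none (0) was lower except with the stricter filter (1, RPL3), the t-test at p under 0.05 (11, RPL3 among them) and the authors' values (1 other gene, with RPL3 at an adjusted p of 0.21). The median of -0.16 was -0.013 (quantile), 0.010 (normexp and quantile) and 0.078 (authors' values). The cause of these moves was not tested.

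Leaving out 1 array gave 1 to 17 higher, 1 to 3 lower and a median of 0.20 to 0.30 for TIA1 versus HuR. For TIAR versus HuR it gave 0 to 7 higher, 0 to 6 lower and -0.02 to 0.18. Against GFP it gave 0 to 34 higher, 0 to 2 lower and 0.22 to 0.63 (TIA1), 0 to 7 higher, 0 lower and 0.07 to 0.49 (TIAR), and 0 to 45 higher, 0 lower and -0.01 to 0.42 (HuR). For TIAR versus TIA1 it gave 0 higher, 0 lower and -0.25 to -0.07. The highest counts against GFP came without GFP 2, where calls over all probes also became many. Whether the members differed there from all probes was not tested. A line left with 1 array is assumed to vary like the other.

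With the replicate block 10 genes were higher and 2 lower in TIA1 versus HuR, 3 and 2 in TIAR versus HuR, and 0 in the other comparisons. Deviations of same-numbered arrays correlated between lines at -0.07 to 0.14. With a single difference per line this cannot tell whether same-numbered arrays shared a culture or a day.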
